A study of Homo sapiens with 10 samples.

Results

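To ask what changed when the miR-200b-3p mimic and the miR-92b inhibitor accompanied the miR-3124-5p mimic, the 3-miRNA mixed group was compared with miR3124_mimic alone. The comparison used 4 of the 10 libraries of the series, 2 from the mixed group and 2 from miR3124_mimic, chosen by their labels, and covered 14884 of 52402 gene symbols, those that passed a filter on low counts. BEAS2B, a line of human bronchial epithelial cells labelled wild type, was transfected with Lipofectamine 2000 in every group. The other groups were a scrambled miRNA (miRcontrol), the miR-200b-3p mimic (miR200b_mimic) and the miR-92b inhibitor (miR92b_inhibitor). Single miRNAs were used at 50 nM and RNA was taken at 48 h. The amount of each miRNA in the mixed group is not given in the sources used here, so a lower dose of the miR-3124-5p mimic and the presence of the other 2 molecules cannot be told apart. Libraries of poly(A)-selected RNA were read on a NovaSeq as pairs, and the deposited values are read counts per gene. The miR3124_mimic libraries held 14518832 and 17414891 counts and the mixed libraries 18004955 and 18503890. The labels do not say whether the libraries of a group came from separate transfections, so the p-values measure the spread between these libraries, which may be technical.

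A miRNA guides Argonaute proteins to messenger RNAs, mostly by pairing of its seed, bases 2 to 8, with the 3′UTR, and the messenger is then degraded or translated less. A mimic adds a double-stranded copy of a miRNA to the cell, while an inhibitor binds the cell's own miRNA and takes it away from its targets. The miR-200 family is known in epithelia for repressing ZEB1 and ZEB2, factors that bind E-boxes in the promoters of CDH1 and other junction genes and switch them off. The mature sequences below, from RefSeq (GRCh38.p14), include those of the transfected mimics and show in capitals the seed whose matches are counted in the results. Both arms of miR-92b are shown because the labels do not say which arm the inhibitor targets. miR-200a-3p was not transfected; its seed differs from that of miR-200b-3p by one base and serves as a comparison.
miR-3124-5p: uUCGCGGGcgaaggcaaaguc
miR-200b-3p: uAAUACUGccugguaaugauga
miR-92b-5p: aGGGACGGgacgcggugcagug
miR-92b-3p: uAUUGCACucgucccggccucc
miR-200a-3p: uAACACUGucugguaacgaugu

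Of 28 tested epithelial junction and identity genes, 18 were higher, and ZEB1 and ZEB2 were lower, in the mixed group than in miR3124_mimic, and MMP2, VAT1L and SYT11 fell to near their miRcontrol levels. Genes were called when they changed 2-fold or more with an adjusted p below 0.05 in the quasi-likelihood test of edgeR, adjusted by Benjamini-Hochberg over all genes tested; every adjusted p given here comes from that test unless another is named. By this criterion 350 genes (2.35%) rose and 584 (3.92%) fell. At a fold change of at least 4, 76 rose and 89 fell. Without a limit on the fold change, 3769 genes (25.3%) were higher and 3539 (23.8%) lower. The median standard error of a log2 fold change was 0.09, so differences well below 2-fold passed the test, and the counts of gene lists given below are to be read against these 2 shares.

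The comparison of miR200b_mimic with miRcontrol uses no library of the mixed or miR3124_mimic groups. There, 405 genes (2.72%) rose and 322 (2.16%) fell by the same criterion. Of the 350 genes that rose in the mixed group, 136 (38.9%) also rose in miR200b_mimic, which is 33.6% of the 405. Of the 584 that fell, 108 (18.5%) also fell in miR200b_mimic, 33.5% of its 322. For miR92b_inhibitor against miRcontrol, 147 genes (0.988%) rose and 138 (0.927%) fell. It shared 42 of the rises (12% of the 350 and 28.6% of the 147) and 43 of the falls (7.36% of the 584 and 31.2% of the 138). For 184 of the rises (52.6%) and 441 of the falls (75.5%), neither single group had a call in the same direction; the same held for 14363 (higher) and 14443 (lower) of the 14884 tested genes. Over all tested genes, which do not count as replicates, the log2 fold change correlated with that of miR200b_mimic at r = 0.37 and with that of miR92b_inhibitor at r = 0.24; over the 11860 genes with at least 1 CPM in every library these were 0.45 and 0.38 (0.378). When the difference between the 2 effects was itself tested, it passed a 2-fold change and an adjusted p under 0.05 for 662 genes (4.45%) against miR200b_mimic and for 622 (4.18%) against miR92b_inhibitor.

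**Figure D1:**
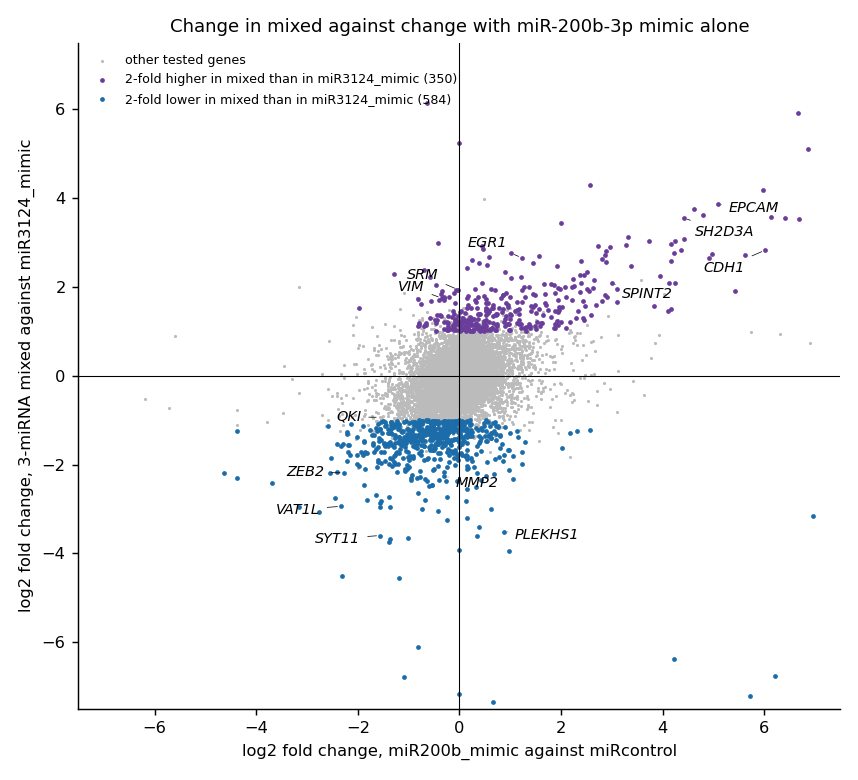
Log2 fold change of each tested gene in the 3-miRNA mixed group against miR3124_mimic (vertical axis) and in miR200b_mimic against miRcontrol (horizontal axis). Purple points are the 350 genes that rose and blue points the 584 that fell; CDH1, EPCAM and SPINT2 lie high on both axes, ZEB2 low on both, SRM and VIM near 0 on the horizontal axis, and 5 genes lie outside the axes.

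ZEB1 and ZEB2, the repressors of epithelial genes targeted by the miR-200 family, both fell. ZEB2 (chromosome 2, from 144364364 to 144524583, GRCh38) had 45.9 and 47.2 normalized CPM (counts scaled to library size) in miR3124_mimic and 10.3 and 10.1 in the mixed group. Its log2 fold change was -2.19 (SE 0.09, adjusted p = 2.24e-25). ZEB1 (chromosome 10, from 31318495 to 31529814) had 59.4 and 56.4 CPM in miR3124_mimic against 29.7 and 28.5 in the mixed group, a log2 fold change of -0.99 (SE 0.07, adjusted p = 1.36e-17). The libraries of the 2 groups did not overlap for either gene. In miR200b_mimic the levels were 6.95 and 6.44 for ZEB2 and 25.9 and 25.6 for ZEB1, lower than in each mixed library. The fall of ZEB2 differed from that in miR200b_mimic by 0.09 (SE 0.15, adjusted p = 0.698), whereas that of ZEB1 was smaller by 0.31 on the log2 scale (SE 0.10, adjusted p = 0.00962). The longest coding transcript of ZEB1 in GENCODE v29 carries 6 words complementary to the miR-200b-3p seed in its 3′UTR and that of ZEB2 carries 5. Matches of the strongest kind, in which an A follows the word, are shown here for the leading targets, with the seed match in capitals; each lies in the 3′UTR of the named gene.
ZEB1 match 1, chr10:31527625-31527647, plus strand: tatcttatCAGTATTatcactct
ZEB1 match 4, chr10:31528499-31528521, plus strand: ttacctatCAGTATTattttatt
ZEB2 match 2, chr2:144388982-144389004, minus strand: caatgcatCAGTATTatgattcc
ZEB2 match 3, chr2:144388624-144388646, minus strand: acccatgtCAGTATTagaagaat
QKI match 2, chr6:163573226-163573248, plus strand: ttggttctCAGTATTatcattct
SEC23A match 2, chr14:39032278-39032300, minus strand: tattgaaaCAGTATTatataatg
SH3PXD2A only match, chr10:103599796-103599818, minus strand: ctgctggaCAGTATTaaatagag
FHOD1 only match, chr16:67229500-67229522, minus strand: gccttgagCAGTATTagccgtgt

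Of 34 genes listed as targets of the miR-200 family, 31 were tested, and 18 were lower and 4 higher at an adjusted p under 0.05, with a median log2 fold change of -0.50 against 0.00 over all genes (-0.00394). QKI, an RNA-binding regulator of splicing, fell from 369 and 350 to 188 and 188 CPM, and SEC23A, a coat protein of secretory vesicles, from 255 and 236 to 120 and 118. Fibronectin (FN1) fell by 0.77 and the invadopodia scaffold SH3PXD2A by 1.72 on the log2 scale, and the actin regulators FHOD1 and CFL2 by 1.0 and 0.84. The phosphatase PPM1F had a log2 fold change of -1.04, the chromatin protein HMGB3 one of -0.78 and RASSF2, a Ras-binding protein without a seed match, one of -1.57. SH3PXD2A had 38.1 and 42.8 CPM in miR3124_mimic and 12.9 and 11.7 in the mixed group, above the 10.4 and 9.67 of miRcontrol and the 4.34 and 5.52 of miR200b_mimic. RASSF2 had 4.92 and 5.77 CPM in miR3124_mimic and 1.49 and 2.1 in the mixed group, beside 1.66 and 0.78 (0.776) in miRcontrol. ERRFI1, a feedback inhibitor of EGFR, rose by 0.80 although its 3′UTR holds 3 matches, and BMI1 (log2 fold change 0.05, adjusted p = 0.465) and RND3 (-0.02, adjusted p = 0.682) did not pass. Among the 25 tested members with a seed match, 16 were lower and 2 higher, with a median of -0.65. Among the 6 without one, 2 were lower and 2 higher, with a median of -0.08. For QKI the fall was smaller than in miR200b_mimic, where it had 125 and 120 CPM, by 0.63 (SE 0.06, adjusted p = 1.15e-12).

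The same order was seen over the 12232 tested genes (82.2%) with an annotated 3′UTR. The word searched was CAGTATT, on the transcript's strand. The median log2 fold change in the mixed group was 0.01 for 9852 genes without it, -0.05 for 1815 with 1 copy and -0.14 (-0.145) for 565 with 2 or more. Of the genes with 2 or more copies, 45.0% were lower and 17.2% higher at an adjusted p under 0.05, against 24.7% and 29.7% of those without. Where an A follows the word, the medians were -0.11 for 591 genes with 1 copy and -0.18 (-0.185) for 58 with 2 or more. In miR200b_mimic the medians by copies of the 7-base word were 0.02, -0.04 and -0.14. In miR3124_mimic against miRcontrol, which shares the miR3124_mimic libraries with the mixed comparison, they were -0.01, 0.04 and 0.08 (0.0845). Genes with more copies also have longer 3′UTRs (median 1043, 2753 and 4478 bases), and within bins of length the genes with the word lay 0.06 to 0.09 below those without it. The matching word of miR-200a-3p, CAGTGTT, gave differences from -0.01 to 0.01 in the same bins. Of the words of the other molecules, that of miR-3124-5p (CCCGCGA, 75 genes with 1 copy) had a median of -0.02 in the mixed group against miR3124_mimic and -0.41 in miR3124_mimic against miRcontrol, 2 comparisons that share the miR3124_mimic libraries. The medians with 1 copy were -0.03 for miR-92b-5p (CCGTCCC, 450 genes) and -0.03 for miR-92b-3p (GTGCAAT, 1338 genes). With 2 or more copies they were -0.09 (-0.0938) for 255 genes with the miR-92b-3p word, of which 36.5% were lower against 26.1% without it, and -0.07 (-0.0716) for 659 genes with the miR-200a-3p word; their 3′UTRs are also long (median 5005 and 4605 bases). In miR92b_inhibitor against miRcontrol, genes without the miR-92b-5p word had a median of -0.007, with 1 copy -0.091 and with 2 or more -0.138. Their 3′UTRs also grew longer with copies (median 1300, 2193 and 2822.5 bases). For the miR-92b-3p word the medians there were -0.008, -0.019 and -0.016. No test was made on these groups of genes.

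**Figure D2:**
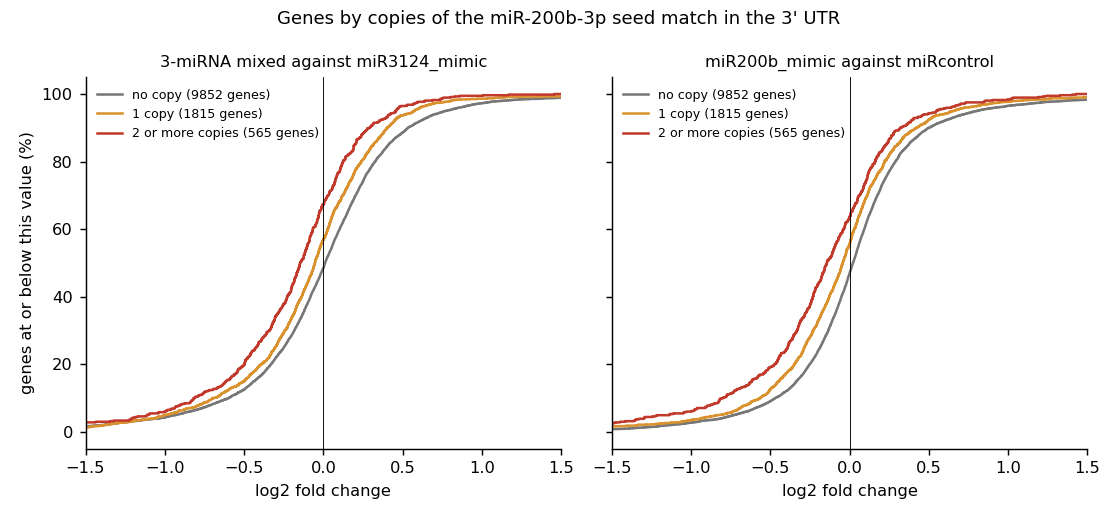
Share of genes (%) at or below each log2 fold change, for genes with no copy (9852), 1 copy (1815) and 2 or more copies (565) of the miR-200b-3p seed match in the 3′UTR, in the mixed group against miR3124_mimic (left) and in miR200b_mimic against miRcontrol (right). In both panels the curve of genes with 2 or more copies lies farthest to the left and that of genes without a copy farthest to the right.

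CRB3, EPCAM and CDS1, of the epithelial list, were among the 12 largest rises. Of 36 listed genes of epithelial junctions and identity, 28 were tested, and 18 were higher and 4 lower, with a median log2 fold change of 0.81. CRB3, a polarity protein of the apical membrane, had 1 and 0 counts in the miR3124_mimic libraries and 51 and 34 in the mixed libraries (0.07 and 0 against 2.82 and 1.83 CPM), a ratio of 74.3 with an exact 95% counting interval of 13 to 2970. EPCAM, an epithelial adhesion molecule, rose from 0.41 and 0.34 to 5.70 and 5.27 CPM, and CDS1, an enzyme of phospholipid synthesis, from 0.14 and 0.34 to 3.48 and 3.39. CDH1 (chromosome 16, from 68737225 to 68835548), the E-cadherin of adherens junctions, had 0.20 and 0.40 CPM in miR3124_mimic and 2.54 and 1.94 in the mixed group, with a log2 fold change of 2.83 (SE 0.42, adjusted p = 1.52e-07). All 4 were below their level in miR200b_mimic, where EPCAM had 10.2 and 10.1 CPM and CDH1 10.9 and 9.03. The tested difference from miR200b_mimic passed for CDH1 (-3.19, SE 0.80, adjusted p = 0.00128) and did not for EPCAM (-1.23, SE 0.65, adjusted p = 0.144); both have few counts in miRcontrol and miR3124_mimic. In bulk RNA, fewer cells of a kind and less RNA per cell cannot be told apart.

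Among more abundant epithelial genes, the serine protease inhibitor SPINT2 rose from 23.4 and 22.1 to 96.7 and 95.0 CPM, a log2 fold change of 2.08 (SE 0.06, adjusted p = 1.23e-29). The desmosome genes PKP3 and DSP rose by 1.71 and 1.09 on the log2 scale and PATJ, a tight junction scaffold, by 1.91. ST14, a membrane protease, rose by 2.82 and its inhibitor SPINT1 by 2.46. These rises were smaller than in miR200b_mimic by 0.92 for SPINT2 (SE 0.10, adjusted p = 2.30e-10) and by 0.64 for PATJ (SE 0.12, adjusted p = 2.88e-05). In miR92b_inhibitor, SPINT2 had 13.5 and 14.5 CPM, below the 17.5 and 15.5 of miRcontrol. The 4 listed genes that fell were CLDN7 (-2.37), NECTIN4 (-1.51), MUC1 (-0.60) and CD24 (-0.55). The median of the list was 0.50 (0.495) without the first mixed library and 0.65 (0.654) without the second, and only 2 of these 4 falls passed in either case.

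**Figure D3:**
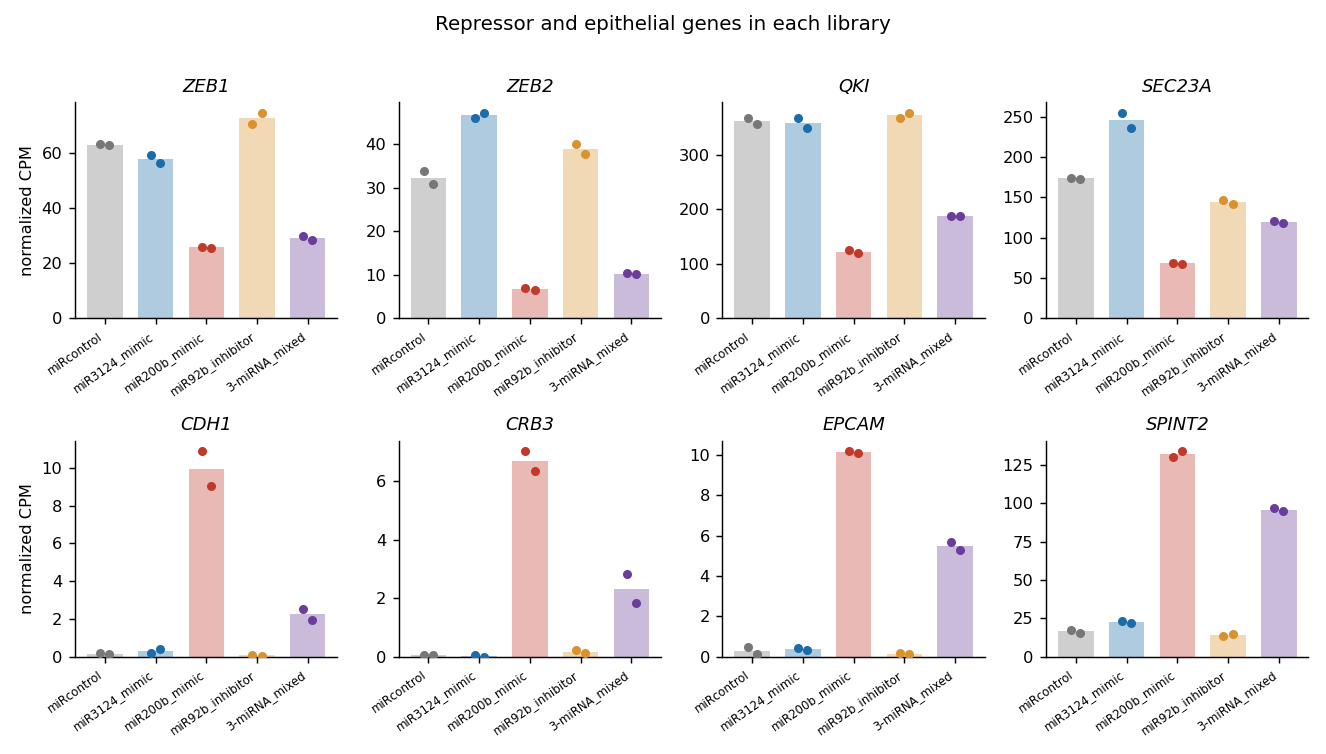
Normalized CPM (linear axes from 0) of 4 genes with miR-200b-3p seed matches (top) and 4 epithelial genes (bottom) in the 5 groups; points are the 2 libraries of each group and bars their mean. For all 8 genes the mixed libraries differ from miR3124_mimic in the direction of miR200b_mimic, with 10.3 and 10.1 CPM of ZEB2 and 96.7 and 95.0 of SPINT2. In level, CDH1 (2.54 and 1.94) and CRB3 (2.82 and 1.83) lie nearer to miR3124_mimic than to miR200b_mimic.

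Since ZEB proteins bind E-boxes, the promoters given by RefSeq (250 bases before to 50 after each start site, GRCh38.p14) were searched for CACCTG and CAGGTG, which are the same word on the 2 strands. At least 1 was present in 20.6% of all 35116 promoters and in 18.6% of those of tested genes. It was present in 98 of the 309 promoters (31.7%) of genes that rose at least 2-fold, for the 224 of the 350 genes with a promoter in the table, and in 104 of 580 (17.9%) of those that fell. The 24 promoters of tested epithelial list genes belong to 17 of the 28 genes, and 15 of these promoters (62.5%) held the word. This list was chosen with earlier results known. Its members that rose at least 2-fold are also among the 350 genes, so the 2 shares are not separate. CRB3 had 5 copies, the first 228 and the last 60 bases before the start, and PATJ had copies 171 and 30 bases before it. A further PATJ copy, at position +10, lies after the start and outside the stretch printed below. The stretches before the start of these 2 genes are shown because they hold several copies, which are in capitals. A match describes the sequence and does not show that a factor binds there.
CRB3, chr19:6464021-6464270, plus strand: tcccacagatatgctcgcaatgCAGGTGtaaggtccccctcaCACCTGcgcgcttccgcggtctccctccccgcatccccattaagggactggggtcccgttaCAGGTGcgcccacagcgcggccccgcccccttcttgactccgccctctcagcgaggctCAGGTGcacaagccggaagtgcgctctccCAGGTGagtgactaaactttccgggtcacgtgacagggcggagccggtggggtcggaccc
PATJ, chr1:61742230-61742479, plus strand: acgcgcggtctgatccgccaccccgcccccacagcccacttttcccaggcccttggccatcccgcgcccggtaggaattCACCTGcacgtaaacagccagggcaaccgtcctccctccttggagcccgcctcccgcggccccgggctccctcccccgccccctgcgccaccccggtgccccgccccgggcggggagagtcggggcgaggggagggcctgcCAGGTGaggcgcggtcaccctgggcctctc

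The genes with the largest rise outside the epithelial list had varied roles. They were chosen as the 12 with the largest log2 fold change among genes past both thresholds, with a mean of at least 1 CPM and both mixed libraries above both miR3124_mimic libraries. SH2D3A, an adaptor of receptor signalling, rose from 2.73 and 2.89 to 34.1 and 32.1 CPM, and had a higher level in miR200b_mimic, 58.0 and 57.3 CPM. IL23A, the p19 chain of interleukin 23, rose from 0.34 and 0.28 to 6.91 and 5.43 CPM, above both miR200b_mimic (1.94 and 2.24) and miR92b_inhibitor (0.76 and 1.92). ZBED2, a zinc finger protein, rose by 4.18 on the log2 scale, the pseudogene ZSCAN12P1 by 3.44, FGFBP1, a carrier of fibroblast growth factors, by 3.07, the small GTPase RAB17 by 3.03 and the adaptor HSH2D by 2.94. The readthrough gene RPS10-NUDT3 had no count in either miR3124_mimic library and 67 and 44 in the mixed libraries, at least 16.1-fold higher against 3 counts per library. This gene had 55 and 42 counts in miR92b_inhibitor, 0 and 0 in miR200b_mimic and 0 and 10 in miRcontrol. It overlaps RPS10 and NUDT3, so its reads may be assigned to either, and its value is uncertain.

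The 12 largest falls, chosen by the same rule, included several genes with little RNA in the other groups. All 12 were called higher in miR3124_mimic than in miRcontrol, a comparison that shares the miR3124_mimic libraries. Of all 14884 tested genes, 800 were so called. In miR200b_mimic or miR92b_inhibitor against miRcontrol, 6 of the 12 were called lower. VAT1L had 23.4 and 25.2 CPM in miR3124_mimic and 2.88 and 3.44 in the mixed group (log2 fold change -2.94, SE 0.15, adjusted p = 9.24e-22), beside 2.63 and 2.98 in miRcontrol. SYT11, a synaptotagmin of vesicle traffic, had 12.7 and 12.6 CPM against 0.72 and 1.35, beside 1.37 and 1.73 in miRcontrol. CDH5, the cadherin of endothelial junctions, had 4.03 and 2.49 against 0.28 and 0.54 CPM. For VAT1L and SYT11 the mixed libraries thus lay close to or below miRcontrol and far from miR3124_mimic. The log2 fold change was -3.75 for BEAN1, -3.68 for the collagen gene COL9A3, -3.51 for PLEKHS1, -3.24 for C15orf59 and -3.04 for NYNRIN. It was -2.99 for the calcium-dependent kinase CAMK1G, -2.95 for the matrix proteoglycan BGN, -2.80 for CLIP3, a microtubule-associated protein, and -2.76 for MAP2K6, a kinase upstream of p38. These 9 genes had at most 0.94 CPM in either mixed library. VAT1L, SYT11, CLIP3 and MAP2K6 also fell in miR200b_mimic against miRcontrol, by 2.33, 1.56, 1.83 and 2.45 on the log2 scale, and VAT1L had 0.37 and 0.69 CPM there and SYT11 0.52 and 0.52. In miR92b_inhibitor against miRcontrol, BEAN1 and BGN also fell, on few counts, and neither passed in miR200b_mimic. BEAN1 had 12 and 9 counts in miRcontrol and 3 and 1 in miR92b_inhibitor, and BGN 2 and 5 against 0 and 0. MAP2K6 was low in miR200b_mimic (0.45 and 0.23 CPM against 1.55 and 2.09 in miRcontrol), and its fall in the mixed group differed from that one by -0.31 (SE 0.69, adjusted p = 0.781).

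MMP2, a gelatinase of the extracellular matrix, had 10.9 and 12.7 CPM in miRcontrol, 65.4 and 67.3 in miR3124_mimic and 15.2 and 12.4 in the mixed group. Its log2 fold change was -2.27 (SE 0.09, adjusted p = 3.20e-26). KIT, a receptor tyrosine kinase, had 19.5 and 17.7 CPM in miR3124_mimic and 4.87 and 4.79 in the mixed group, and the kinesin KIF5C 5.12 and 5.49 against 0.995 and 1.67. In miRcontrol, KIT had 2.06 and 3.22 CPM and KIF5C 0.34 and 0.30, below both mixed libraries. MMP9 had 1.78 and 2.32 CPM in miR3124_mimic and 1.27 and 1.4 in the mixed group, a difference that did not pass the test (-0.62, SE 0.37, adjusted p = 0.164).

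Genes with their lowest level in miR3124_mimic included several abundant ones. SRM (chromosome 1, from 11054584 to 11060024), the spermidine synthase of the polyamine pathway, had 125 and 122 CPM in miRcontrol, 14.9 and 16.6 in miR3124_mimic and 60.4 and 60.9 in the mixed group. Its log2 fold change between the last 2 was 1.94 (SE 0.07, adjusted p = 4.17e-27). The vimentin gene VIM, an intermediate filament of mesenchymal cells, had 3890 and 3710 CPM in miRcontrol, 827 and 799 in miR3124_mimic and 2680 and 2780 in the mixed group (log2 fold change 1.75, SE 0.03). ACTB had 1690 and 1690 CPM in miR3124_mimic and 3810 and 3820 in the mixed group, and the keratin KRT19 0.62 and 0.90 against 2.49 and 2.74. The mixed libraries lay between miR3124_mimic and miRcontrol for these 4 genes. SRM and VIM changed by less in the single groups (log2 fold changes of -0.03 and -0.35 in miR200b_mimic and of 0.19 and 0.16 in miR92b_inhibitor). The rise in the mixed group was larger than the effect of miR200b_mimic by 1.97 for SRM and by 2.10 for VIM (adjusted p = 1.19e-23 and 7.06e-35, edgeR). SYDE1, a GTPase-activating protein, was low in both groups. It had 29.5 and 31.3 CPM in miR3124_mimic and 27.4 and 25.2 in the mixed group, against 113 and 111 in miRcontrol. Its log2 fold change of -0.21 (adjusted p = 0.0196) did not pass without the second mixed library (-0.15, adjusted p = 0.211), without the second miR3124_mimic library (-0.16, adjusted p = 0.195) or with DESeq2 (-0.21, adjusted p = 0.0568).

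**Figure D4:**
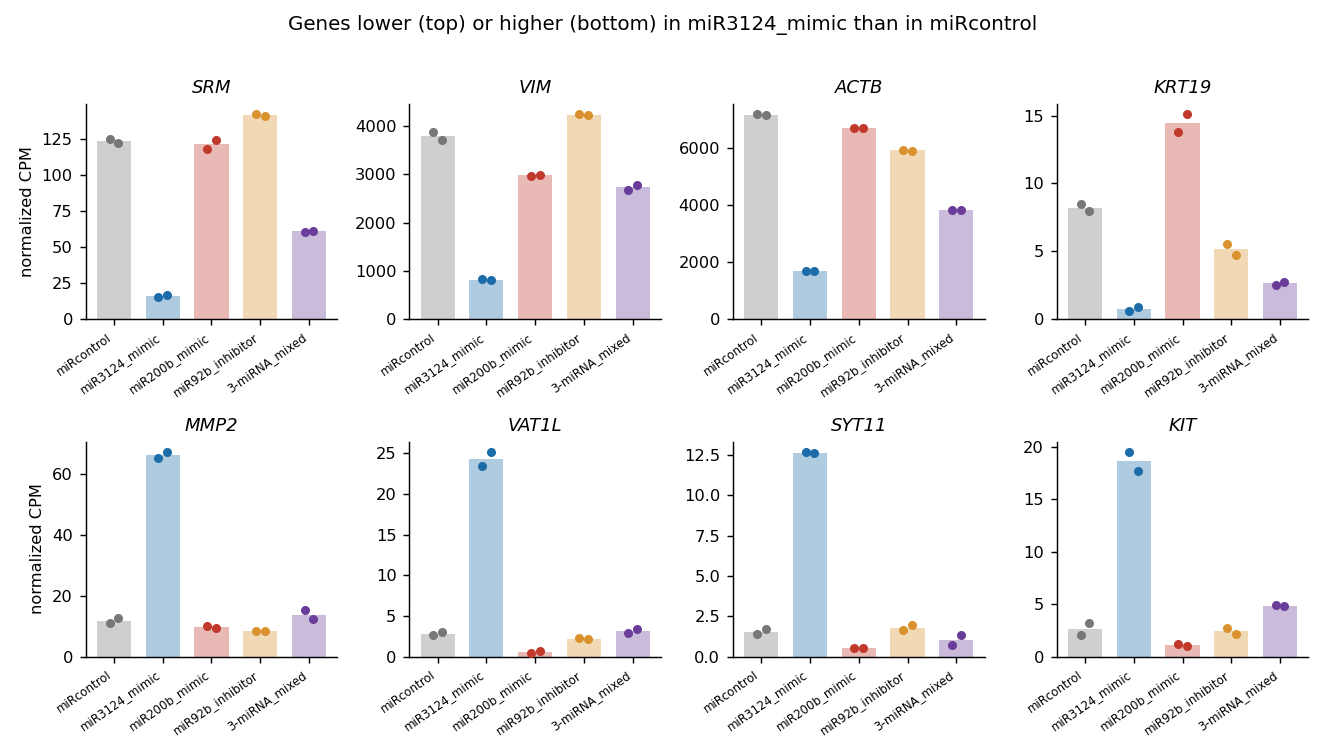
Normalized CPM (linear axes from 0) of 4 genes that were lower (top) and 4 that were higher (bottom) in miR3124_mimic than in miRcontrol, in the 5 groups; points are the 2 libraries of each group and bars their mean. SRM, VIM, ACTB and KRT19 in the mixed group lie between miR3124_mimic and miRcontrol, and MMP2, VAT1L and SYT11 lie near miRcontrol.

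Of the other polyamine genes, ODC1, the first enzyme of the pathway, rose by 0.80, AMD1 by 0.45 and the spermine oxidase SMOX by 0.64. In all, 8 of 14 were higher and 2 lower (AZIN2 -0.85 and OAZ2 -0.48), with a median of 0.15. ODC1 had 472 and 483 CPM in the mixed group, above the 325 and 326 of miRcontrol and near the 509 and 499 of miR92b_inhibitor.

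Mesenchymal and matrix genes were mostly lower than in miR3124_mimic. Of 33 listed, 28 were tested, of which 17 were lower and 5 higher, with a median log2 fold change of -0.52. TAGLN, an actin-binding protein of smooth muscle, fell from 151 and 154 to 55.4 and 55.3 CPM, fibrillin (FBN1) from 364 and 350 to 179 and 173, and PDGFRB and the collagen cross-linking enzyme LOX fell by 1.31 and 0.94 on the log2 scale. The mixed libraries had TAGLN at the level of miRcontrol (57.5 and 54.3) and FBN1 slightly below it (197 and 201). PDGFRB, at 13.1 and 10.5 CPM, stayed above its miRcontrol level (7.61 and 7.64). LOX, at 144 and 153 CPM, lay below its miRcontrol level (305 and 289). The genes that rose included VIM, the repressor SNAI2 (from 11.2 and 10.2 to 33.8 and 32.8 CPM), TWIST2 (0.46) and AXL (0.16). The list thus did not move as one, and it shares ZEB1, ZEB2 and FN1 with the list of miR-200 targets. Of 36 tested actin and contractile genes, 18 were lower and 13 higher, with a median of -0.11. The light chain MYL9 fell by 1.18, while the membrane linker ezrin (EZR) rose by 1.12, the kinase LIMK1 by 1.04 and the focal adhesion protein ZYX by 0.95.

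**Figure D5:**
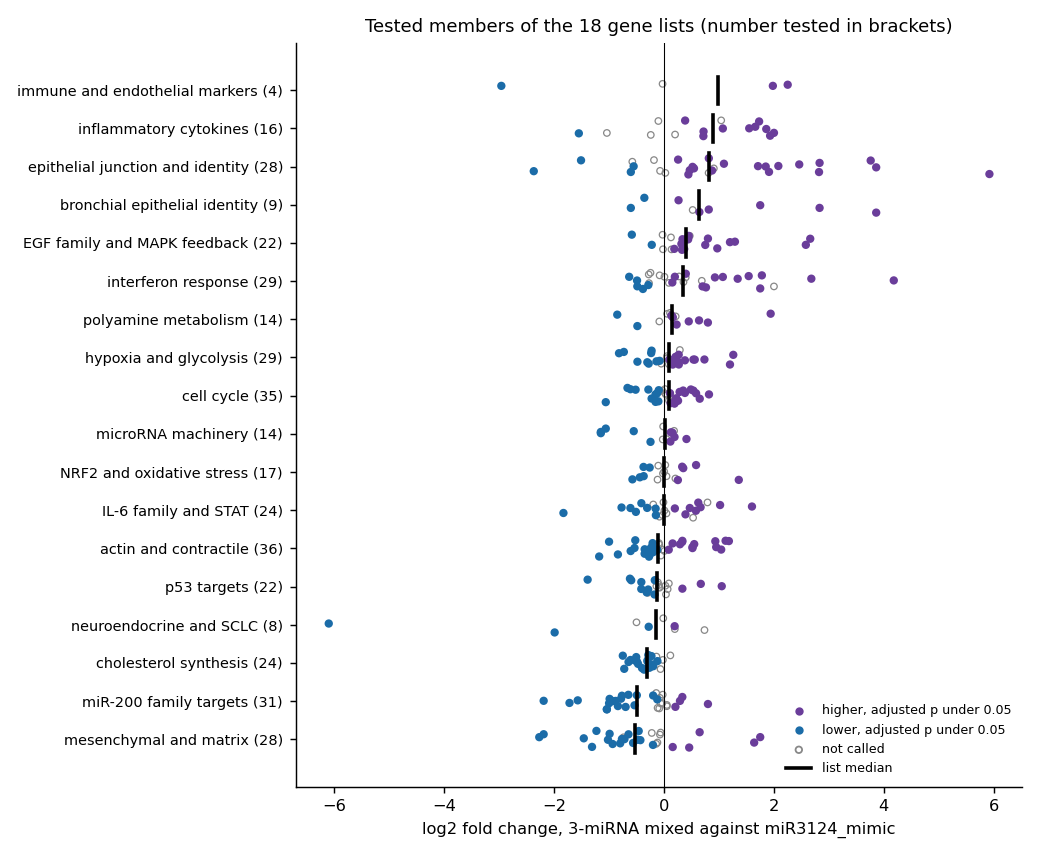
Log2 fold change in the mixed group against miR3124_mimic of each tested member of the 18 gene lists, ordered by median (black bars); purple and blue points passed an adjusted p of 0.05 and open points did not. Medians run from -0.52 for mesenchymal and matrix genes to 0.81 for epithelial and 0.88 for inflammatory genes, and the median of 0.98 at the top rests on 4 tested immune and endothelial markers and was 0.03 without the first mixed library, -0.07 without the second and -0.01 (-0.0091) without the second miR3124_mimic library.

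Of 22 tested genes of the EGF family and MAPK feedback, 15 were higher and 2 lower, with a median of 0.40. The EGFR ligand AREG had 4.23 and 4.02 CPM in miR3124_mimic and 23.2 and 26.1 in the mixed group (log2 fold change 2.58, SE 0.13, adjusted p = 1.52e-21). EGR1, an immediate early transcription factor, had 8.40 and 6.62 against 45.8 and 48 CPM, and the AP-1 subunit FOSL1 148 and 137 against 338 and 359. The AREG relative EREG rose by 1.20 and FOS by 0.97. AREG had 27.1 and 29.5 CPM in miR200b_mimic and 6.59 and 5.04 in miR92b_inhibitor, and its change differed from that in miR200b_mimic by 0.19 (SE 0.20, adjusted p = 0.501). EGR1 had 35 and 47.1 CPM in miR92b_inhibitor and 19 and 21.6 in miR200b_mimic. The change of EGR1 exceeded that in miR200b_mimic by 1.42 (SE 0.19, adjusted p = 2.53e-08) and that in miR92b_inhibitor by 0.42 (SE 0.18, adjusted p = 0.0755). The phosphatase DUSP1 (-0.59) and ERBB2 (-0.22) fell.

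Inflammatory genes had a median of 0.88, with 10 of 16 tested members higher and 1 lower; 22 were listed. BIRC3, an inhibitor of apoptosis induced by NF-κB, rose from 30.4 and 25.3 to 96.9 and 103 CPM, and the NF-κB inhibitor TNFAIP3 from 20.1 and 20.2 to 62.7 and 70.8. IL1A rose by 1.55, IL1B by 1.07, the adhesion molecule ICAM1 by 0.72 and CXCL8 by 0.38, while the chemokine CCL2 fell by 1.55. The prostaglandin synthase PTGS2 rose by 1.66 and the colony-stimulating factor CSF2 by 1.93, both at low levels. PTGS2 had 0.137 and 0.226 CPM in miR3124_mimic and 0.608 and 0.592 in the mixed group, beside 0.801 and 0.597 in miRcontrol. CSF2 had 0.615 and 0.339 CPM in miR3124_mimic and 1.49 and 2.1 in the mixed group. BIRC3 was also high in miR92b_inhibitor (71.9 and 83.0 CPM), and its change there differed from that in the mixed group by 0.13 (SE 0.11, adjusted p = 0.376). For TNFAIP3 the change in the mixed group was larger by 0.70 than in miR92b_inhibitor (SE 0.11, adjusted p = 1.51e-06). In the IL-6 family and its STAT pathway, 8 of 24 tested genes were higher and 8 lower, with a median of 0.00 (-0.00145). The cytokine IL24 rose from 6.42 and 7.13 to 19.8 and 21.5 CPM, near its level in miR92b_inhibitor (21.6 and 23.8), although its change was smaller than there (difference -1.02, SE 0.19, adjusted p = 3.27e-05). LIF rose by 1.02, IL6 by 0.62 and IL11 by 0.39. The receptor IL6R rose by 0.47, from 31.3 and 31.5 to 41.4 and 45.6 CPM, against 9.50 and 9.13 in miRcontrol. IL11RA (-1.83), SOCS3 (-0.61), LIFR (-0.51) and the kinase JAK1 (-0.41) fell.

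Interferon-stimulated genes were uneven between the mixed libraries. Of 38 listed, 29 were tested, and 13 were higher and 5 lower (3 without the first mixed library), with a median of 0.35. IFI6 had 17.3 and 14.4 CPM in miR3124_mimic and 37.5 and 68.6 in the mixed group, OAS3, an antiviral RNA sensor, 60.3 and 55.4 against 90.4 and 129, and the ubiquitin-like ISG15 19.5 and 16.4 against 27.4 and 47.2. OAS2 had 2.88 and 7.43 CPM in the mixed libraries, and 2.16 and 6.79 in those of miR92b_inhibitor. The second mixed library was the higher of the pair for these 4 genes. IFIT1 (-0.63), IFIT2 (-0.49), IFIT3 (-0.29) and IFIT5 (-0.49) fell. Without the second mixed library the median of the list was 0.02 (0.0156) with 9 genes higher, and without the first it was 0.68 (0.675) with 14 higher. IFI6 then had a log2 fold change of 1.25 or 2.13, and 1.75 with both libraries. ZBED2 is a member of this list as well as one of the 12 largest rises. The interferon gene IFNB1 and the chemokine CXCL10 had no count in any library.

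Of 24 cholesterol synthesis genes, 20 were lower and 4 did not pass, among them EBP, HSD17B7 and MVK, with a median of -0.30. SREBF2, the transcription factor of the pathway, fell from 219 and 228 to 138 and 128 CPM, its regulator INSIG1 from 108 and 115 to 65.1 and 70.4, the enzyme MSMO1 by 0.61 and the transporter STARD4 by 0.65. These 4 falls were the largest of the list, all below 2-fold. The miR92b_inhibitor libraries were lower still for INSIG1 (50.5 and 46.9) and STARD4 (26.5 and 28.1), and the change of INSIG1 there was larger than in the mixed group by 0.32 (SE 0.08, adjusted p = 0.00127). For SREBF2 the 2 changes differed by 0.00 (0.00329, SE 0.06, adjusted p = 0.979).

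Cell cycle genes divided, with 15 of 35 tested higher and 11 lower (7 without the second mixed library) and a median of 0.09. The cyclins CCNE1 and CCNE2 and the replication helicase subunit MCM6 had log2 fold changes of -0.67, -0.52 and -0.61. The G1 genes CCND1 and CDK6 rose by 0.82 and 0.65, from 571 and 540 to 979 and 979 CPM and from 448 and 418 to 677 and 682, RRM2, the ribonucleotide reductase subunit, rose by 0.58, and the CDK inhibitor CDKN1B fell from 97.6 and 95.2 to 47.0 and 45.6 CPM. Of 22 p53 targets, 9 were lower and 3 higher, with a median of -0.13; TP53INP1 fell by 1.39, XPC by 0.60 and ZMAT3 by 0.41, AEN rose by 1.05, and CDKN1A (-0.09) and MDM2 (0.03) did not pass. In hypoxia and glycolysis, 13 of 29 tested genes were higher and 9 lower, with a median of 0.10. LDHA, the lactate dehydrogenase subunit, rose from 563 and 575 to 1300 and 1320 CPM, VEGFA by 0.74 and the hexokinases HK2 and HK1 by 0.56 and 0.54, while CA9, a carbonic anhydrase induced by hypoxia, did not pass (0.29, adjusted p = 0.224). Of 17 tested NRF2 and oxidative stress genes, 5 were higher and 5 lower, with a median of 0.00 (0.003). The ferritin light chain FTL rose from 217 and 227 to 565 and 577 CPM and TXNRD1 by 0.33, whereas NQO1 fell by 0.57 (-0.575) and HMOX1 by 0.44.

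In the miRNA machinery, 5 of 14 tested genes were higher and 5 lower, with a median of 0.01. Of the rises, 2 passed without the second mixed library and 3 without the second miR3124_mimic library. TNRC6A, a scaffold that joins Argonaute to the deadenylases, fell from 315 and 338 to 159 and 153 CPM, and AGO4 from 56.8 and 56.3 to 26.5 and 24.6. TNRC6C had a log2 fold change of -1.15. TNRC6B fell by 0.55 and AGO1 by 0.25, while AGO2 rose by 0.19. The mixed libraries were close to miRcontrol for TNRC6A (153 and 151) and AGO4 (25.3 and 22.9).

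The markers of the labelled cell type were mixed. Of 16 listed for bronchial epithelium, 9 were tested, 6 higher and 2 lower, with a median of 0.64; neither of the 2 falls, MUC1 and KRT17, passed without the first mixed library or with DESeq2, and 1 passed when any other library of the 2 groups was left out. The summed level of all 16, tested or not, rose from 2815 and 2839 to 4140 and 4113 CPM. KRT8, KRT7 and KRT18 were the most abundant, and KRT7 and KRT18 rose by 0.81 and 0.64. The basal cell markers KRT5, KRT14 and TP63, the secretory marker SCGB1A1, the ciliated cell factor FOXJ1, MUC5AC and NKX2-1 did not pass the filter, and SCGB1A1 and MUC5AC had no count in any library. Of 17 neuroendocrine and small cell lung cancer markers, 8 were tested, with a median of -0.147. Leaving out miR3124_mimic replicate 1 gave a median of -0.026 and leaving out replicate 2 one of -0.0266. INSM1, CHGA, GRP, CALCA and STMN2 had no count in any library. KIF5C and ENO2 (-0.28) fell, UCHL1 rose by 0.19, and SYP had 10 and 6 counts in miR3124_mimic and none in the mixed libraries, at least 3.14-fold lower against 3 counts per library. Of 11 immune and endothelial markers, 4 were tested. The summed level of all 11, tested or not, was 29.9 and 29.3 CPM in miR3124_mimic and 30.6 and 30.8 in the mixed group. Most of it was CD68, which did not differ beyond its error (-0.03, SE 0.09, adjusted p = 0.827). CDH5 fell, and the haematopoietic signalling genes LCK and VAV1 rose from 0.68 and 0.57 to 3.26 and 2.69 and from 0.68 and 0.96 to 3.82 and 2.80 CPM. Both were also above miRcontrol in miR200b_mimic, at 1.5 and 1.44 for LCK and 2.69 and 3.45 for VAV1. HLA-DRA had no count in any library. The part of other cell types in these values was not tested.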

How the data were processed

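Raw data quality was checked by the authors with FastQC, reads were trimmed with FASTX_Trimmer and BBMap and mapped with TopHat (version not given). The submitters' processing notes name GRCh38, and the annotation, counting tool and strand setting are not given in the sources used here. The files the authors deposited hold whole-number read counts (58173 rows per library), before the FPKM and geometric normalization of the study's methods. Rows with the same symbol were summed (52402 symbols). In R 4.3.3, edgeR 4.0.16 with limma 3.58.1 was used: filterByExpr, RLE normalization (factors 0.985 to 1.0161), and the quasi-likelihood test (glmQLFit, glmQLFTest) with all 10 libraries (5 groups of 2) in one fit without covariates, Benjamini-Hochberg over 14884 genes, common dispersion 0.0007515. The fit was tested on simulated data. Levels are normalized CPM, and the SE is the log2 fold change divided by the root of its F statistic, an approximation. Genes at 0 in a group were bounded against 3 counts per library; intervals cover counting error only. Libraries held 13587666 to 18503890 counts; those of a pair had a chi-square per degree of freedom of 1.75 to 2.63 and were kept as 2 samples. Differences between same-numbered libraries correlated between groups at -0.0352 to 0.0359 over 12585 genes, so no pairing was seen across genes as a whole. Such a correlation cannot show an effect shared by a few genes. Some interferon-stimulated genes, among them OAS2 and MX1, were higher in the second library of both the mixed group and miR92b_inhibitor. Whether the numbers pair the libraries is not known.

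Genes named were the 12 largest rises and 12 largest falls past both thresholds with a mean of at least 1 CPM and no overlap of libraries, up to 4 members of each of 18 lists with the smallest adjusted p, others needed to show a direction or a non-call, and genes known from earlier results. Some genes that met the rule are not reported here. Further list members were named after their values were seen. The comparison, genes and lists were chosen with earlier results of these data known. 3′UTRs came from the longest coding transcript in GENCODE v29. Alternatives were TMM, library totals, the DESeq2 1.42.0 Wald test, no filter, a minimum of 10 counts in each library, a replicate block, a fit of 2 groups only, and leaving out each library.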

Additional observations from a re-analysis of the deposited data

Results flagged for a closer look

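For the named genes below, the change in the mixed group against miR3124_mimic differed at least 2-fold from the change in miR200b_mimic and from that in miR92b_inhibitor, each against miRcontrol, in edgeR's quasi-likelihood test of the difference with Benjamini-Hochberg adjustment. The values given are the log2 change in the mixed group minus that in miR200b_mimic, followed by the same minus that in miR92b_inhibitor. The differences were 1.97 and 1.75 for SRM, 2.10 and 1.59 for VIM, 1.27 and 1.45 for ACTB and 1.45 and 1.55 for LDHA, which had log2 changes of -0.03, -0.35, -0.09 and -0.25 in miR200b_mimic. They were 1.45 and 3.17 for ZSCAN12P1, 1.43 and -1.02 for IL24 and 1.36 and 2.40 for CA9. They were 1.09 and -1.60 for HMOX1, which changed by -0.44 in the mixed group, -1.53 in miR200b_mimic and 1.16 in miR92b_inhibitor. They were -3.19 and 4.09 for CDH1, which rose in the mixed group and in miR200b_mimic and had at most 3 counts in each miRcontrol library, so the size of its value depends on the fit's treatment of low counts. They were -1.97 and -1.79 for MMP2, -2.04 and -3.82 for SYT11, -2.25 and -3.73 for CAMK1G and -4.39 and -2.90 for PLEKHS1. PLEKHS1 and CAMK1G had at most 3.17 CPM in any library.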

How the results depend on the processing

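Of 78 alternative values of the counts of called genes and of the seed match difference, 73 stayed within 1.5 times the reported value. With a minimum of 10 counts in each library, which leaves fewer genes to test, 499 genes passed in place of 934, with 423 in miR200b_mimic and 131 in miR92b_inhibitor against miRcontrol. With the DESeq2 Wald test, 139 passed in miR92b_inhibitor and 424 for the difference from miR200b_mimic; the cause was not tested. With the replicate block, 933 genes passed, and the block changed no other count by over 1.5 times. Leaving out 1 library in turn gave 831 to 949 genes, and from 6067 to 6377 without a fold limit, where the reported value was 7308. The median log2 fold change of genes with a miR-200b-3p seed match minus that of the others was -0.083, and -0.0945 to -0.0728 without 1 library. Of 1092 alternative values for the 102 genes named by rule, which leave out further list members named in the text, 1089 kept their direction and their side of the threshold; the other 3 were those of SYDE1. Beyond the counts of called genes and the seed match difference, 53 alternative values moved, among them counts and medians of the gene lists. List values changed over 1.5 times by 1 library are given with the list. With the minimum of 10 counts the median was 0.519 in place of 0.813 for the epithelial list, 0.161 in place of 0.354 for interferon, 0.251 in place of 0.643 for bronchial markers (3 rises in place of 6), -0.0393 in place of 0.975 for immune and endothelial markers and 0.0766 in place of -0.147 for the neuroendocrine list. Genes near or below 1 CPM, such as CDH1 and CRB3, rest on few counts, and 2 libraries per group limit every test.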
